A study of Mus musculus with 12 samples.

Results

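Proteins made in the cytosol reach the mitochondrion through a chain of import complexes, and once inside they are cut, folded and, if damaged, degraded. The genes of this machinery described here are those whose symbol begins with Timm or Tomm followed by a digit, together with 16 named genes for the import motor, the presequence peptidase, the matrix chaperones and the mitochondrial proteases. The choice used gene names and no measured value, but it was made with earlier results of these data known. It gave 39 genes of the 16411 in the deposited table, and all 39 passed the filter on low counts, with a smallest count of 28 in any sample.

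The RNA libraries were made from 6 mammary tumors and from benign mammary tissue (6 samples), all of female MMTV-Neu-NDL-YD5 transgenic mice on an FVB background. These animals are heterozygous for an activated form of HER2 (neu, Erbb2) with a restored YD site, driven by the MMTV promoter, which is active mainly in mammary epithelium. Benign tissue came from the same genotype, so both groups carry the transgene, and it was mammary tissue without a visible tumor taken far from any tumor. The tumors and the benign samples sequenced came from different mice, the labels name no treatment, and they do not state the age of each mouse.

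Precursors are recognised at the outer membrane by receptors of the TOM complex and pass through its pore. Those with a presequence continue through the TIM23 channel of the inner membrane, pulled by a motor built around the matrix Hsp70, whereas carrier proteins are escorted by small Tim chaperones to the TIM22 complex. In the matrix the presequence is removed, Hsp60 and Hsp10 fold the protein, and proteases such as Lon, ClpXP and the AAA proteases of the inner membrane remove what fails. The nuclear genes for this machinery are expressed in all tissues and are known for high levels where mitochondria are abundant, as in muscle and brown fat.

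Levels in a sample are given as CPM, which relates each count to the library's size after TMM scaling. Total counts ranged from 5240853 to 8588567 per sample. The samples of benign tissue were not alike. The summed CPM of 10 skeletal muscle transcripts (such as Ckm and Acta1) lay between 33.5 and 379 in benign samples 1, 2 and 5, between 35700 and 89750 in benign samples 3, 4 and 6, and between 1.204 and 133 in tumors. For 5 brown fat transcripts, Ucp1 among them, the same 3 ranges were 39.3 to 164 (benign 1, 2 and 5), 193 to 3096 (benign 3, 4 and 6) and 3.71 to 20.2 (tumors). White fat transcripts fell in tumors for 6 of 6 genes, with a summed level of 7161 to 16600 CPM in benign tissue and 8.39 to 87.6 CPM in tumors. Of 6 epithelial transcripts 4 rose in tumors and 1, Krt19, fell, and their summed level was 855 to 2220 CPM in benign tissue and 2139 to 3937 CPM in tumors. The summed level of 3 endothelial transcripts was 439 to 811 CPM in benign tissue and 63.9 to 77.6 CPM in tumors, and that of 4 leukocyte transcripts was 222 to 1208 CPM and 112 to 231 CPM. Of 4 cell division transcripts none was called, at 13.9 to 475 CPM in benign tissue and 340 to 521 CPM in tumors. None of the transcripts in these lists was at 0 in every tumor. In bulk tissue, fewer cells of a type and less RNA per cell cannot be told apart, and the part of this mixture in the results below was not tested beyond the fits that leave out benign samples 3, 4 and 6 or adjust for muscle and Ucp1.

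With all 12 samples, 20 of the 39 genes of the import and folding machinery fell in tumors, 2 rose and 17 did not pass the test, which was edgeR's two-sided quasi-likelihood test called at a Benjamini-Hochberg adjusted p of 0.1. Over all 13191 genes tested, 34.8% were called lower and 28.2% higher, which is 63.0% in either direction. The number called lower was 10 without benign samples 3, 4 and 6, where 28.7% of all genes were, and with muscle and Ucp1 as covariates it was 7, where 26.3% of all genes were. The chaperonin genes Hspe1 and Hspd1, the channel gene Timm23 and the small Tim gene Timm10 had the largest falls, with log2 fold changes of -1.14, -1.08, -1.05 and -1.03. The genes that rose were Grpel2, a nucleotide exchange factor of the import motor (0.49), and Yme1l1, a protease of the inner membrane (0.34). The median log2 fold change was -0.36 over the 39 genes and -0.06 over all genes tested, and over the 39 genes it was -0.12 without benign samples 3, 4 and 6 and -0.015 with the covariates. All 6 tumors lay below all 6 benign samples for 10 genes, where 21.2% of all genes tested did so, and above them for 2 genes, where 14.7% did so. For the other 27 genes the groups overlapped.

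**Figure D1:**
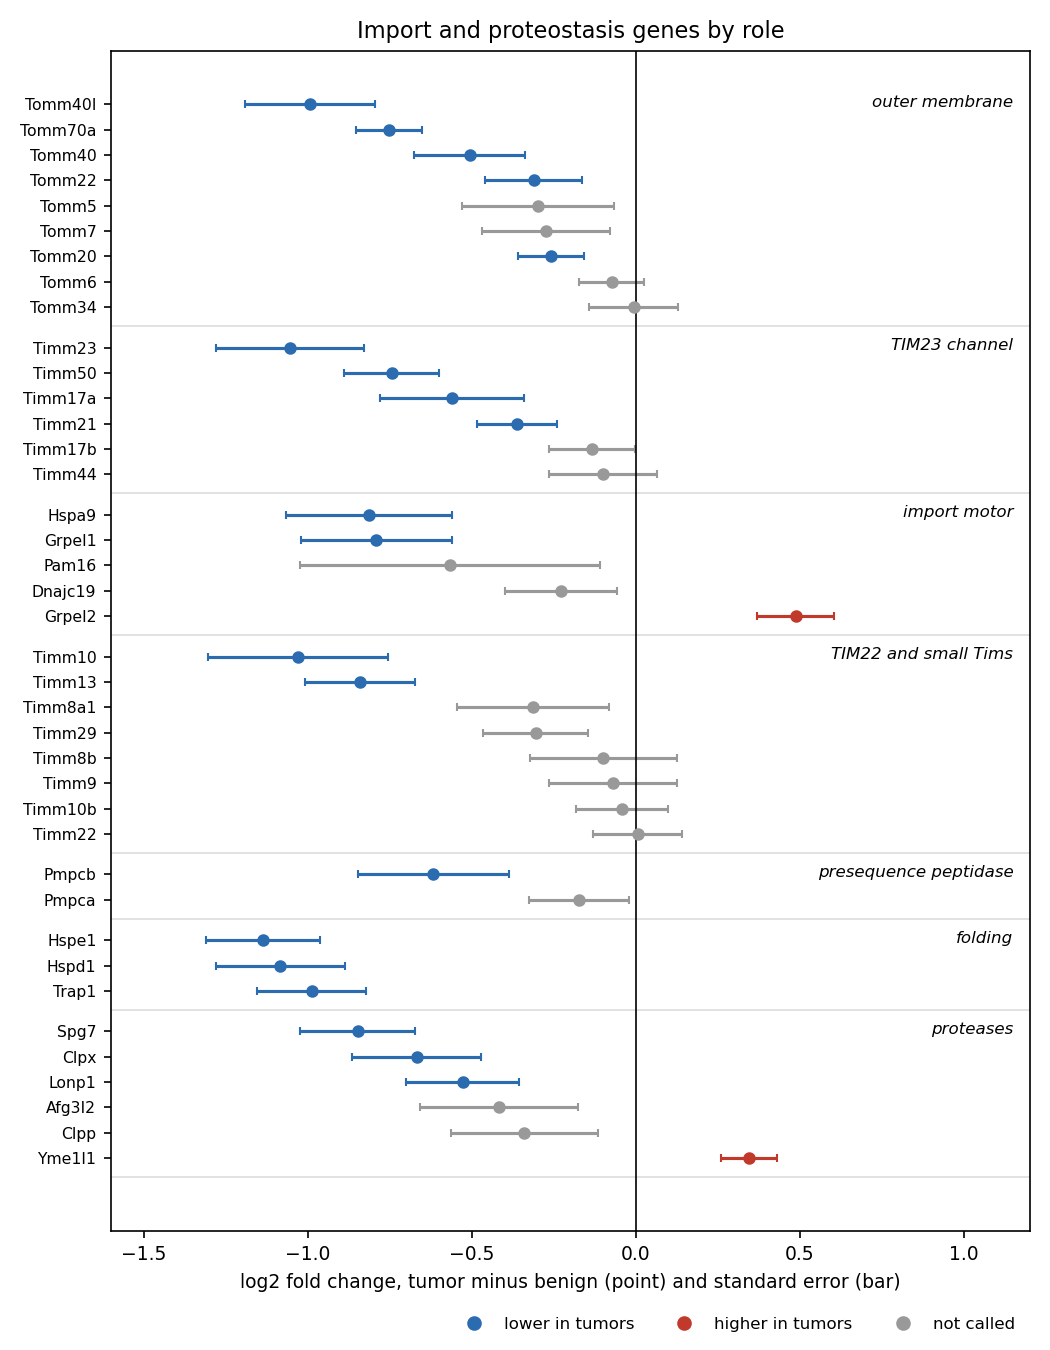
Log2 fold change (x axis, tumor minus benign) of each of the 39 genes, grouped by role, with points for the edgeR estimate and bars for its standard error. Blue points fell, red points rose and grey points were not called. The 3 folding genes lie near -1, and Grpel2 and Yme1l1 are the 2 red points to the right of 0.

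The matrix chaperones had the lowest median log2 fold change of the role groups (-1.08). All 3 of their genes fell (34.8% of all genes tested did). In all 3 every tumor lay below every benign sample, where 21.2% of all genes tested did so. Hspd1 encodes Hsp60, the barrel-shaped chaperonin of the matrix. Its level was 269, 434 and 615 CPM in benign tissue (lowest, median and highest of 6) and 179.6, 203 and 242 CPM in tumors. Benign sample 1 was lowest and benign sample 4 highest, and every tumor lay below benign sample 1. The log2 fold change was -1.08 ± 0.20 (SE, adjusted p = 0.00041 by edgeR). Hspe1 encodes Hsp10, the lid of that chaperonin. It had 73.1, 103 and 133 CPM in benign tissue and 36.4, 46.4 and 59.8 CPM in tumors, again with every tumor below every benign sample. Its log2 fold change was -1.14 ± 0.17 (SE, adjusted p = 0.00011 by edgeR). The annotation names 6 pseudogenes for Hspe1 and 5 for Hspd1, so the assignment of some reads between these copies is uncertain. Trap1, the mitochondrial Hsp90, had 166, 193 and 311 CPM in benign tissue and 101.5, 111 and 119 CPM in tumors. The tumors were close to each other, with a coefficient of variation of 6.03% against 28.7% in benign tissue. The log2 fold change of Trap1 was -0.99 ± 0.17 (SE, adjusted p = 0.00024 by edgeR). Without benign samples 3, 4 and 6 the 3 genes were still called lower by edgeR, with log2 fold changes of -0.66 for Hspd1, -0.83 for Hspe1 and -0.58 for Trap1.

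Hspd1 and Hspe1 lie head to head on chromosome 1 of GRCm38, Hspd1 at chr1:55077835-55088243 on the minus strand and Hspe1 at chr1:55088132-55091307 on the plus strand, with their annotated starts 111 bases apart and overlapping (GENCODE M21). The sequence around the start of Hspe1 is shown because both genes fell. It lies within the annotated span of Hspd1 and ends before the start of that gene at base 55088243. The RefSeq promoter window of Hspe1 (GRCm38.p6, chr1:55087898-55088197, plus strand, 5′ to 3′) holds 2 overlapping matches to the heat shock element, an array of GAA and TTC units. The capitals mark the 18 bases they cover, which begin 89 bases before the RefSeq start of Hspe1. That start differs from the GENCODE start given above.
Hspe1 promoter: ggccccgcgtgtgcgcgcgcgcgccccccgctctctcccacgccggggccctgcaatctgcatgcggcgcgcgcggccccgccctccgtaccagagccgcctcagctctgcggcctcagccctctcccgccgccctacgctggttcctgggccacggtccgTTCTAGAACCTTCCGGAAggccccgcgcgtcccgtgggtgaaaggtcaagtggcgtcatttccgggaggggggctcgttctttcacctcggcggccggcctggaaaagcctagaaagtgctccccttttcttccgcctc
The ratio of Hspd1 to Hspe1 counts within a sample, on the log2 scale, was 1.83, 2.11 and 2.20 in benign tissue and 1.80, 2.19 and 2.40 in tumors (lowest, median and highest). The ranges overlapped almost completely, and the difference of means of 0.09 did not pass (two-sided exact permutation test, p = 0.413, adjusted p = 0.451 over 12 gene pairs). Among the 33 genes of the machinery with a RefSeq promoter window (250 bases before to 50 after the start), the heat shock element was found on either strand in 3, Timm9, Hspd1 and Hspe1, which is 9.09%. It was found in 0.662% of all 27025 genes with such a window. A gene was counted if any of its windows held the motif. A window of Hspd1 overlaps that of Hspe1 and holds the same element read from either strand, so this element enters the share of these genes once for each. Timm9, which holds it too, was not called (log2 fold change -0.07).

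At the outer membrane 5 of the 9 Tomm genes fell (34.8% of all genes tested did) and none rose (28.2% of all did). Tomm70a, a receptor for carrier precursors, had 102, 125 and 141 CPM in benign tissue and 65.7, 72.0 and 76.9 CPM in tumors. No tumor reached the lowest benign sample, and the log2 fold change of -0.75 ± 0.10 (SE) had the smallest adjusted p of the 39 genes, 3.7e-05 by edgeR. Tomm40l, a paralog of the pore gene, had 37.2, 44.6 and 82.8 CPM in benign tissue and 20.6, 26.2 and 29.7 CPM in tumors, also without overlap. Its log2 fold change was -0.99 ± 0.20 (SE, adjusted p = 0.00090 by edgeR). Tomm40 itself, which forms the pore, had 58.7, 83.9 and 117 CPM in benign tissue and 49.1, 61.9 and 69.7 CPM in tumors. Here 4 of the 6 tumors lay within the benign range, and the log2 fold change was -0.51 ± 0.17 (SE, adjusted p = 0.020 by edgeR). The presequence receptor Tomm20 had the highest CPM of the Tomm genes, with 111, 134 and 146 CPM in benign tissue and 94.6, 108 and 128 CPM in tumors. The log2 fold change of Tomm20 was -0.26 ± 0.10 (adjusted p = 0.044 by edgeR). Tomm22, the central receptor, had a log2 fold change of -0.31 ± 0.15 (adjusted p = 0.090 by edgeR), with tumor 5 above every benign sample. Neither call was firm, since that of Tomm20 was lost in 6 and that of Tomm22 in 11 of the 12 fits that left out a sample. The small subunits that stabilise the pore were not called, at log2 fold changes of -0.30 for Tomm5, -0.07 for Tomm6 and -0.27 for Tomm7. Tomm34, a co-chaperone found largely in the cytosol, was at -0.01 and not called.

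Of the 6 genes of the TIM23 channel 4 fell and none rose, where 34.8% of all genes tested fell and 28.2% rose. Timm23, which forms the channel, had 88.2, 131 and 224 CPM in benign tissue and 53.2, 67.4 and 85.6 CPM in tumors. Benign sample 4 was highest and benign sample 1 lowest, and tumor 1, the highest tumor, lay just under benign sample 1. The log2 fold change was -1.05 ± 0.23 (SE, adjusted p = 0.0015 by edgeR). Timm50, the receptor that hands presequences to the channel, had 49.7, 68.9 and 89.1 CPM in benign tissue and 35.3, 40.5 and 46.1 CPM in tumors, without overlap. Its log2 fold change was -0.74 ± 0.15 (SE, adjusted p = 0.00076 by edgeR). Timm17a and Timm17b encode alternative partners of Timm23. Timm17a had 63.4, 83.6 and 148 CPM in benign tissue and 49.1, 60.0 and 80.8 CPM in tumors, and its log2 fold change was -0.56 ± 0.22 (SE, adjusted p = 0.043 by edgeR). Timm17b had 21.0, 27.4 and 31.1 CPM in benign tissue and 19.5, 25.8 and 28.2 CPM in tumors, and it was not called (log2 fold change -0.13). In benign samples 3, 4 and 6 Timm17a lay between 98.4 and 148 CPM, and in the other benign samples between 63.4 and 68.8 CPM, within the tumor range. Without samples 3, 4 and 6 its log2 fold change was -0.01 and the call was lost, whereas Timm23 (-0.51) and Timm50 (-0.41) were still called lower. With muscle and Ucp1 as covariates Timm50 was called lower (-0.34, adjusted p = 0.060 by edgeR) and Timm23 was not called (-0.37, adjusted p = 0.132 by edgeR). Timm21, which links the TOM and TIM23 complexes, fell by 0.36 on the log2 scale (adjusted p = 0.021 by edgeR), and its call was lost without tumor 1 or tumor 3 and without benign samples 3, 4 and 6. Timm44, which tethers the motor to the channel, had 57.5, 66.1 and 110.1 CPM in benign tissue and 61.1, 68.6 and 80.4 CPM in tumors and was not called (log2 fold change -0.10).

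Timm23 (chr14:32180162-32201898, minus strand, GRCm38) starts 51 bases from Parg, a gene for poly(ADP-ribose) glycohydrolase on the opposite strand. The stretch around this shared start is shown because the genes on its sides differed in direction: Timm23 fell, and Parg rose from 33.3 ± 4.58 to 42.6 ± 5.09 CPM (means ± SD, n = 6 per group), a log2 difference of 0.35 ± 0.12 (SE, adjusted p = 0.022 by edgeR). The sequence runs 5′ to 3′ along the strand of Timm23 (GRCm38.p6, chr14:32201872-32201991). The capitals mark a match to the GABPA motif CCGGAAGT in reverse orientation, 48 bases before the RefSeq start of Timm23.
Timm23 promoter: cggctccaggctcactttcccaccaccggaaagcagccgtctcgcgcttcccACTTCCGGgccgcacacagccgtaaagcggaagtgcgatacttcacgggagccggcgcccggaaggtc
The GABPA motif was found on either strand in 6 of the 33 genes with a window (18.2%) and in 4.31% of all genes with a window. The 6 were Tomm70a, Timm23, Timm29, Timm10, Timm10b and Pmpcb. Of these 6 genes Tomm70a, Timm23, Timm10 and Pmpcb fell and Timm29 and Timm10b were not called. Over the 39 genes 51.3% fell, and over all genes tested 34.8%, and no relation of the motif to the fall was tested.

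In the import motor the Hsp70 gene and 1 exchange factor fell while the other exchange factor rose. Hspa9, the matrix Hsp70, had 329, 499 and 969 CPM in benign tissue and 271, 304 and 414 CPM in tumors. Benign sample 4 had the highest level and benign samples 1, 2 and 5 reached at most 413 CPM, so that 2 tumors lay within the benign range. The log2 fold change was -0.81 ± 0.25 (SE, adjusted p = 0.014 by edgeR), and it was -0.17 and not called without benign samples 3, 4 and 6. Grpel1, the main nucleotide exchange factor of this Hsp70, had 61.3, 80.8 and 164 CPM in benign tissue and 47.0, 52.3 and 74.9 CPM in tumors. Tumor 1 was the only tumor within the benign range. Grpel1 had a log2 fold change of -0.79 ± 0.23 (SE, adjusted p = 0.010 by edgeR), which was -0.24 and not called without benign samples 3, 4 and 6. Its paralog Grpel2 had 22.7, 27.3 and 29.1 CPM in benign tissue and 30.4, 37.4 and 41.7 CPM in tumors. Every tumor lay above every benign sample, with a log2 fold change of 0.49 ± 0.12 (SE, adjusted p = 0.00325 by edgeR). Without benign samples 3, 4 and 6 Grpel2 was still called higher, at 0.62. The J-domain subunit Dnajc19 and its J-like partner Pam16 were not called. Pam16 was the least abundant gene of the 39 by CPM, with 6.57, 11.03 and 26.0 CPM in benign tissue and 3.07, 8.18 and 17.9 CPM in tumors (log2 fold change -0.57 ± 0.46, SE). Dnajc19 had 30.2, 33.2 and 54.3 CPM in benign tissue and 26.7, 33.8 and 37.2 CPM in tumors (log2 fold change -0.23 ± 0.17, SE).

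**Figure D2:**
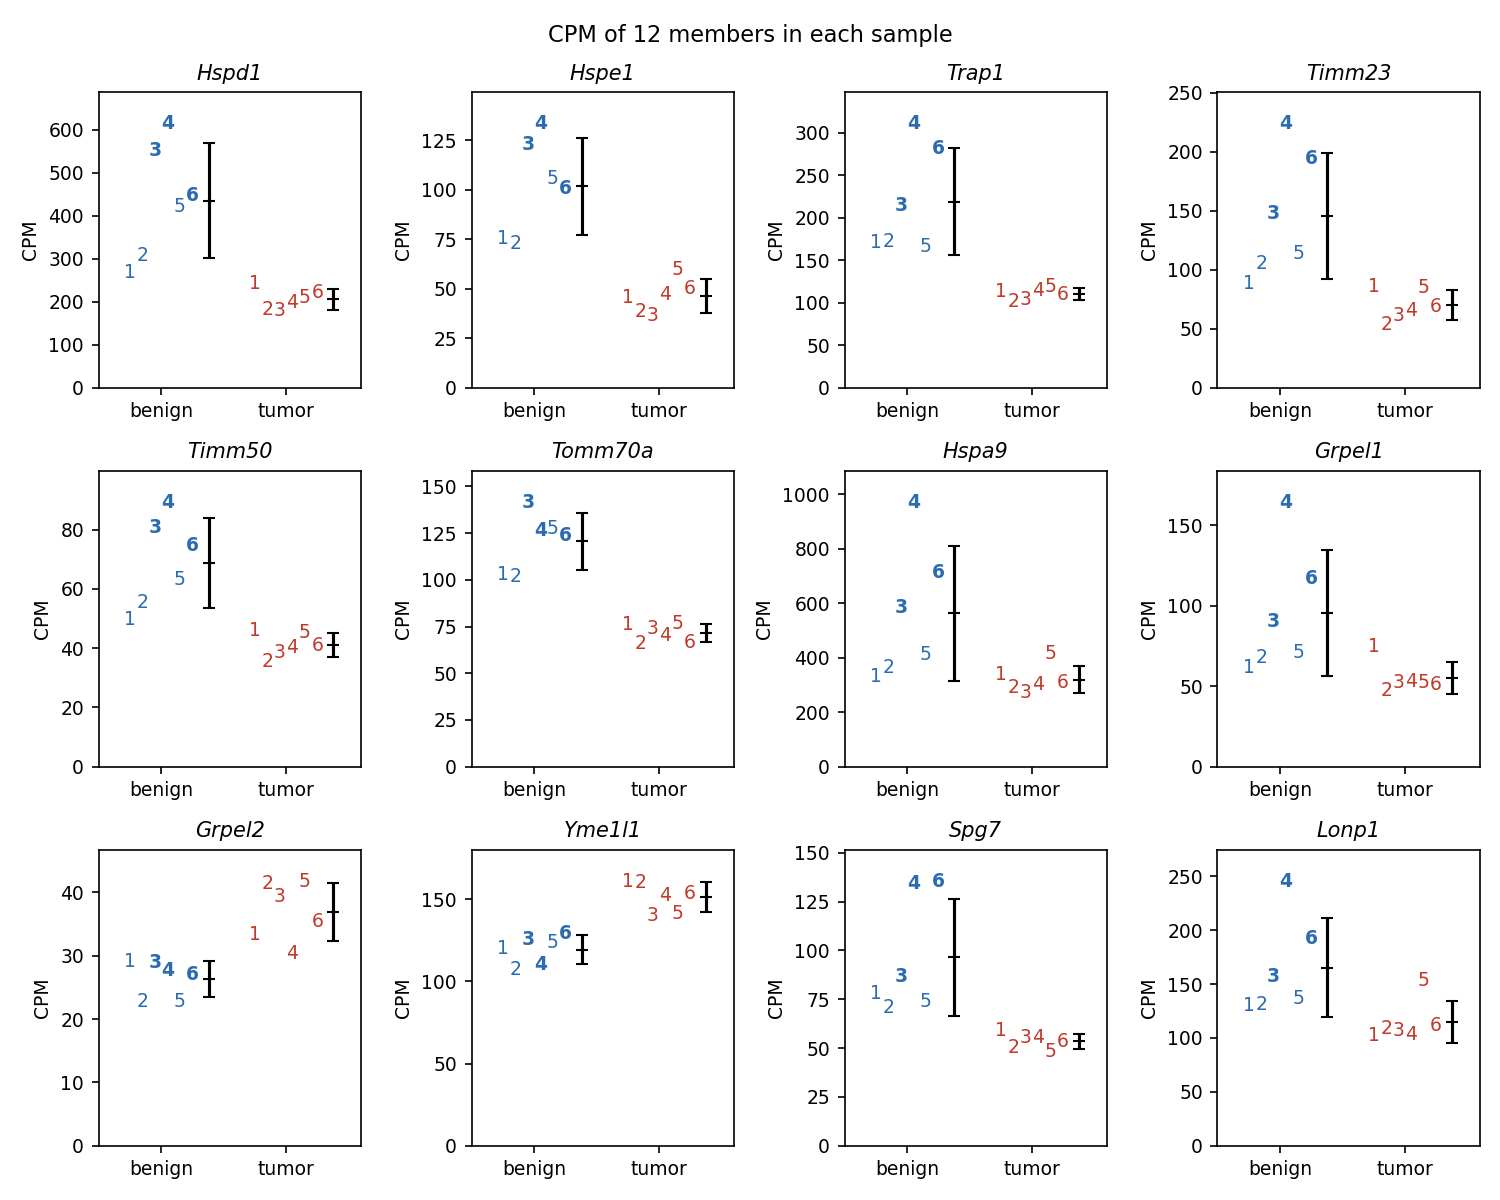
CPM of 12 genes in each sample (y axis, from 0), with digits for the sample numbers of benign tissue (blue) and tumors (red) and bars for the mean ± SD of 6. Bold digits are benign samples 3, 4 and 6, in which the skeletal muscle transcripts reached 35700 to 89750 CPM. Hspa9, Grpel1 and Lonp1 overlap between the groups, whereas Hspd1, Hspe1, Trap1, Timm23, Timm50, Tomm70a and Spg7 are lower and Grpel2 and Yme1l1 higher in every tumor.

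Of the 6 small Tims, chaperones of the intermembrane space, 2 fell and 4 were not called. That share of 33.3% lay near the 34.8% of all genes tested that fell. Timm10 had 10.03, 16.2 and 33.8 CPM in benign tissue and 6.46, 8.99 and 10.2 CPM in tumors. Only tumor 6 reached the lowest benign sample, and the log2 fold change was -1.03 ± 0.28 (SE, adjusted p = 0.0062 by edgeR). It was -0.46 and not called without benign samples 3, 4 and 6 (adjusted p = 0.107 by edgeR), and with the covariates -0.28. Timm9, which forms a hexamer with Timm10, had 23.5, 28.5 and 41.3 CPM in benign tissue and 18.2, 31.7 and 35.6 CPM in tumors and was not called (log2 fold change -0.07). Timm13 had 52.1, 64.8 and 107 CPM in benign tissue and 32.5, 37.7 and 47.3 CPM in tumors, with no overlap. Its log2 fold change was -0.84 ± 0.17 (SE, adjusted p = 0.00091 by edgeR), and -0.52 without benign samples 3, 4 and 6, where it was still called. Timm8a1, the partner of Timm13, had 19.5, 27.0 and 40.0 CPM in benign tissue and 13.9, 22.9 and 30.5 CPM in tumors (log2 fold change -0.31, not called). Timm8b had 23.3, 35.0 and 61.4 CPM in benign tissue and 32.7, 37.0 and 44.9 CPM in tumors (log2 fold change -0.10, not called). Without benign samples 3, 4 and 6 the log2 fold change of Timm8b was 0.45 ± 0.15 (SE) and it was called higher (adjusted p = 0.032 by edgeR). Timm10b was at -0.04. Of the TIM22 complex, which inserts carriers, the channel gene Timm22 was at 0.00 (0.0049) with 20.4 to 36.5 CPM in benign tissue and 27.1 to 33.2 CPM in tumors, and the subunit gene Timm29 was at -0.31, and neither was called.

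The matrix peptidase that removes presequences has subunits encoded by Pmpca and Pmpcb. Pmpca, the subunit that recognises the presequence, had 95.3, 127 and 167 CPM in benign tissue and 97.6, 110.3 and 133 CPM in tumors and was not called (log2 fold change -0.17). Pmpcb, the catalytic subunit, had 81.3, 93.5 and 171 CPM in benign tissue and 55.1, 63.6 and 109 CPM in tumors. Tumors 1 and 5 lay within the benign range, the log2 fold change was -0.62 ± 0.23 (SE, adjusted p = 0.035 by edgeR), and the call was lost without tumor 2, 3 or 4 and without benign samples 3, 4 and 6.

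Of the 6 protease genes 3 fell (34.8% of all genes tested did), 1 rose (28.2% of all did) and 2 were not called. Spg7 and Afg3l2 encode subunits of the AAA protease that faces the matrix. Spg7 had 70.9, 82.4 and 135 CPM in benign tissue and 48.2, 54.2 and 59.0 CPM in tumors. No tumor reached a benign sample, the log2 fold change was -0.85 ± 0.18 (SE, adjusted p = 0.0012 by edgeR), and it was -0.43 and still called without benign samples 3, 4 and 6. With muscle and Ucp1 as covariates it was -0.37 and not called (adjusted p = 0.126 by edgeR). Afg3l2 had 72.4, 96.7 and 201 CPM in benign tissue and 73.8, 79.2 and 109 CPM in tumors, wholly within the benign range, and was not called (log2 fold change -0.42). Clpx, the unfoldase that feeds ClpP, had 59.8, 64.8 and 124 CPM in benign tissue and 44.9, 51.2 and 58.4 CPM in tumors, without overlap but with benign samples 1, 2, 3 and 5 close to the tumors. Its log2 fold change was -0.67 ± 0.20 (SE, adjusted p = 0.011 by edgeR), and -0.24 without benign samples 3, 4 and 6 (adjusted p = 0.093 by edgeR). With the covariates it was -0.15 and not called (adjusted p = 0.555 by edgeR). The peptidase gene Clpp had 37.1, 45.3 and 79.8 CPM in benign tissue and 24.1, 39.1 and 53.5 CPM in tumors and was not called (log2 fold change -0.34). Lonp1, the soluble Lon protease of the matrix, had 129.9, 147 and 245 CPM in benign tissue and 103, 108 and 153 CPM in tumors. Tumor 5 alone reached the benign range. The log2 fold change of Lonp1 was -0.53 ± 0.17 (SE, adjusted p = 0.019 by edgeR), and it was -0.17 and not called without benign samples 3, 4 and 6. Yme1l1, the AAA protease that faces the intermembrane space, had 107, 122 and 129 CPM in benign tissue and 140.0, 153 and 161 CPM in tumors. All tumors lay above all benign samples. The difference was small but even, with a log2 fold change of 0.34 ± 0.09 (SE, adjusted p = 0.00395 by edgeR) and 0.42 without benign samples 3, 4 and 6, still called.

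Spg7 lies at chr8:123062942-123097760 on the plus strand (GENCODE M21, GRCm38). Its RefSeq start lies inside that span, downstream of the GENCODE start, so the 2 annotations differ. The stretch around the RefSeq start (GRCm38.p6, chr8:123065408-123065527, plus strand, 5′ to 3′) is shown because it holds 2 matches to the NRF1 motif, marked by the capitals, which begin 66 and 4 bases before that start.
Spg7 promoter: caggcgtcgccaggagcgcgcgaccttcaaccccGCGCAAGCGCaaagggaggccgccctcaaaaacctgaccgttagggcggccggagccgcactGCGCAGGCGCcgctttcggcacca
The NRF1 motif was found in 6 of the 33 genes with a window (18.2%) and in 6.997% of all genes with a window. The 6 were Tomm20, Pam16, Timm8b, Hspd1, Hspe1 and Spg7. The match in Hspe1 lies in a run of alternating g and c. The genes that hold the motif include 4 that fell and 2, Pam16 and Timm8b, that were not called. Of the 39 genes 51.3% fell, and of all genes tested 34.8%. No relation of the motif to the fall was tested. The E-box CACGTG was found in 6 of the 33 genes (18.2%, and 8.09% of all) and the ERR motif CAAGGTCA in 2 (6.06%, and 1.76% of all). The C/EBP-ATF motif TGATGNAA was found in none of the 33 genes and in 4.51% of all. Both strands were searched, no match to a motif overlapped a match to another motif in these genes, and these matches describe the reference sequence and show no binding.

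Several other genes of the machinery share a start region with a neighbour. The starts of Timm8b and Sdhd, a subunit gene of succinate dehydrogenase, are 98 bases apart, and Sdhd fell from 209.8 ± 118 to 92.5 ± 13.7 CPM (means ± SD, n = 6 per group), a log2 fold change of -1.18 ± 0.30 (SE, adjusted p = 0.0044 by edgeR), while Timm8b was not called. The starts of Timm29 and Yipf2 are 106 bases apart, and Yipf2 rose from 26.3 ± 4.30 to 65.6 ± 9.06 CPM, a log2 fold change of 1.32 ± 0.14 (SE, adjusted p = 3.4e-06 by edgeR), while Timm29 was at -0.31 and not called. The starts of Pmpca and Entr1 are 23 bases apart, and Entr1 fell (log2 fold change -0.64) while Pmpca was not called. Beside Timm9, Timm10b and Tomm6, which were not called, 2700049A03Rik (1.13) and Arfip2 (0.67) rose and Frs3 (-0.66) fell. Neither gene was called for Timm17b and Pqbp1 or for Tomm34 and Stk4. Yme1l1 rose while its neighbour Mastl (0.81) was not called. The annotated transcripts of Timm29 and Yipf2, and likewise those of Hspd1 and Hspe1, overlap at their starts, and whether the counting used strand is not given in the sources used here. These neighbours are named for their position, and no test of likeness between neighbours was made.

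Ratios of partner genes within a sample show whether members of a complex or of a paralog pair moved unequally, and they need no scaling between libraries. Of 12 pairs compared by two-sided exact permutation tests over 924 regroupings of the 12 samples, 5 passed an adjusted p of 0.05, and the smallest p this design can give is 0.00216. The pairs, like the genes, were chosen with earlier results of these data known. Ratios are log2 of counts, so they compare samples and not the levels of the 2 genes. The ratio of Timm9 to Timm10 was 0.29, 0.92 and 1.27 in benign tissue and 1.37, 1.77 and 1.99 in tumors (lowest, median and highest). All 6 tumors lay above all 6 benign samples, and the difference of means was 0.84 (exact permutation test, p = 0.00216, adjusted p = 0.026). The ratio of Grpel1 to Grpel2 was 1.07, 1.64 and 2.56 in benign tissue and 0.18, 0.47 and 1.16 in tumors. Tumor 1 alone lay above the lowest benign sample, and the mean fell by 1.19 (exact permutation test, p = 0.00433, adjusted p = 0.026). The ratio of Afg3l2 to Spg7 rose from a mean of 0.19 ± 0.22 to 0.66 ± 0.28, that of Tomm40 to Tomm40l from 0.73 ± 0.29 to 1.19 ± 0.15 and that of Pmpca to Pmpcb from 0.23 ± 0.24 to 0.68 ± 0.26 (means ± SD, n = 6 per group, adjusted p = 0.031 for each by exact permutation tests). In these 3 pairs the groups overlapped. The pairs that did not pass were Timm8a1/Timm13 (adjusted p = 0.052), Hspa9/Hspd1 (0.10), Timm17a/Timm17b (0.182), Clpp/Clpx (0.199), Timm8a1/Timm8b (0.296), Hspd1/Hspe1 (0.451) and Pam16/Dnajc19 (0.463), all by exact permutation tests. The Timm9/Timm10 and Grpel1/Grpel2 differences passed in each of the 12 repeats that left out a sample. The number of pairs that passed was 2 without benign 1, benign 2, tumor 5 or tumor 6 and 3 without benign 4, tumor 1 or tumor 4. Without benign samples 3, 4 and 6 the pairs that passed were Timm9/Timm10, Afg3l2/Spg7 and Hspa9/Hspd1, and the Grpel1/Grpel2 difference was -0.86 (exact permutation test, adjusted p = 0.057).

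**Figure D3:**
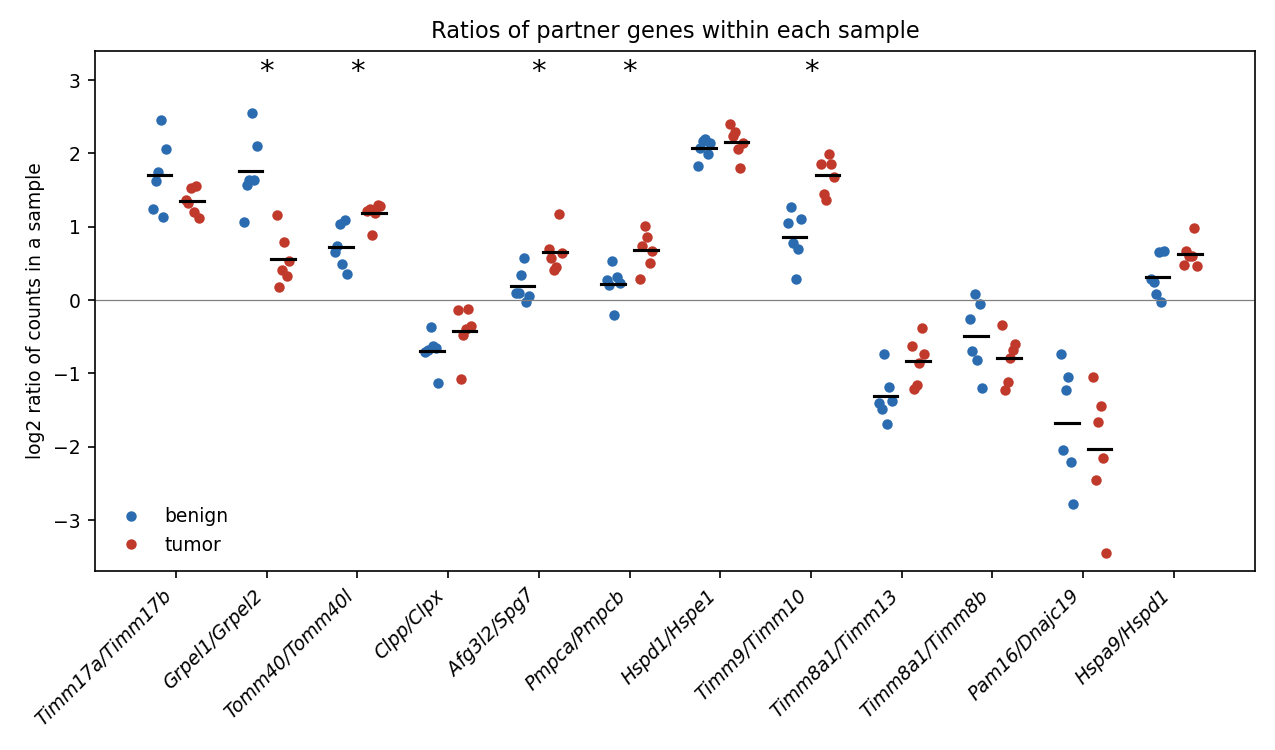
Log2 ratio of counts (y axis) for 12 pairs of partner genes (x axis) in each sample, with points for benign samples (blue) and tumors (red), black lines for group means and asterisks for pairs past an adjusted p of 0.05 in exact permutation tests. For Timm9/Timm10 the 6 tumors lie above the 6 benign samples, and for Hspd1/Hspe1 the groups overlap.

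Levels of the 39 genes varied more in benign tissue than in tumors. Benign samples 3, 4 and 6, which had the most muscle and brown fat transcripts, were highest by their mean level. The summed muscle level of these samples was 52750, 35700 and 89750 CPM, and sample 4, with the least muscle of these, had the highest mean level. The median coefficient of variation was 28.3% in benign tissue and 13.8% in tumors, and it was larger in benign tissue for 32 genes. Benign sample 4 was the highest benign sample for 29 genes, and for 36 genes the highest was sample 3, 4 or 6. For 21 genes all of benign samples 3, 4 and 6 lay above all of 1, 2 and 5. The mean log2 CPM of the 39 genes was 5.81, 5.78 and 5.91 in benign samples 1, 2 and 5, and 6.16, 6.59 and 6.29 in benign samples 3, 4 and 6. In tumors 1 to 6 it was 5.85, 5.45, 5.56, 5.66, 5.83 and 5.68. Benign sample 4 had the highest summed brown fat level (3096 CPM) and benign sample 6 the next (865 CPM), and for 24 genes these were the highest pair of benign samples. The counts of genes in this paragraph and the coefficients of variation were not taken over all genes tested. Whether they are particular to the 39 genes was not tested. Among tumors, tumor 1 was highest for 19 genes and tumor 5 for 18, and tumor 2 was lowest for 21. The summed muscle level of tumors 1 to 6 was 2.65, 1.93, 1.204, 9.05, 133 and 2.52 CPM. Their summed brown fat level was 9.50, 3.71, 3.97, 6.62, 20.2 and 7.57 CPM. Tumors 2 and 3 were lowest for both lists and for the mean level of the 39 genes. Tumor 5 was highest for both lists and tumor 1 for that mean, and the relation was not tested.

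**Figure D4:**
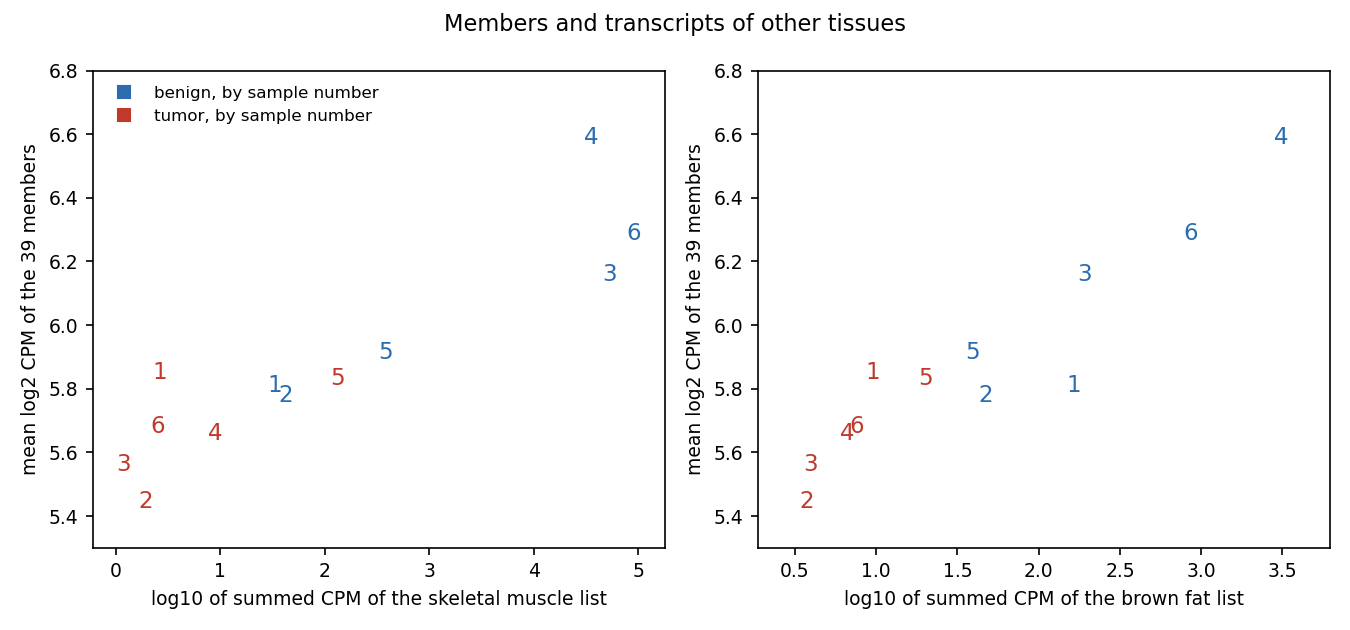
Mean log2 CPM of the 39 genes (y axis) against log10 of the summed CPM of 10 skeletal muscle transcripts (left) and 5 brown fat transcripts (right), with a digit for each benign sample (blue) and tumor (red). Benign samples 3, 4 and 6 lie to the right and at the top, and benign samples 1, 2 and 5 lie near tumors 1 and 5 in the mean level of the genes.

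Against benign samples 1, 2 and 5 alone, fewer of the 39 genes were lower in tumors. edgeR called 10 of 39 lower (28.7% of all genes tested in that fit) and 3 higher (26.7%), and the median log2 fold change was -0.12 over the 39 genes and 0.00 (0.0009) over all genes. The 10 that fell were all among the 20 of the full comparison: Tomm40l, Tomm70a, Timm23, Timm50, Timm13, Hspd1, Hspe1, Trap1, Clpx and Spg7. The 10 no longer called were Tomm20, Tomm22, Tomm40, Timm17a, Timm21, Hspa9, Grpel1, Timm10, Pmpcb and Lonp1, of which Timm10 had the largest remaining difference. With a score of skeletal muscle transcripts and Ucp1 as covariates in all 12 samples, edgeR called 7 lower (26.3% of all genes) and 4 higher (21.9%), with a median log2 fold change of -0.015. The 7 called lower were Tomm40l, Tomm70a, Timm50, Timm13, Hspd1, Hspe1 and Trap1. Timm23, Clpx and Spg7 were not called with the covariates. These counts rest on fewer samples or on more terms in the model, and the difference between the fits was not tested. The covariates themselves differed between the groups. Ucp1 was 0 to 6.905 CPM in tumors and 0 to 1434 CPM in benign tissue, and the muscle transcripts were lower in tumors as well. That fit therefore cannot fully separate the covariates from the difference between tumor and benign tissue.

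**Figure D5:**
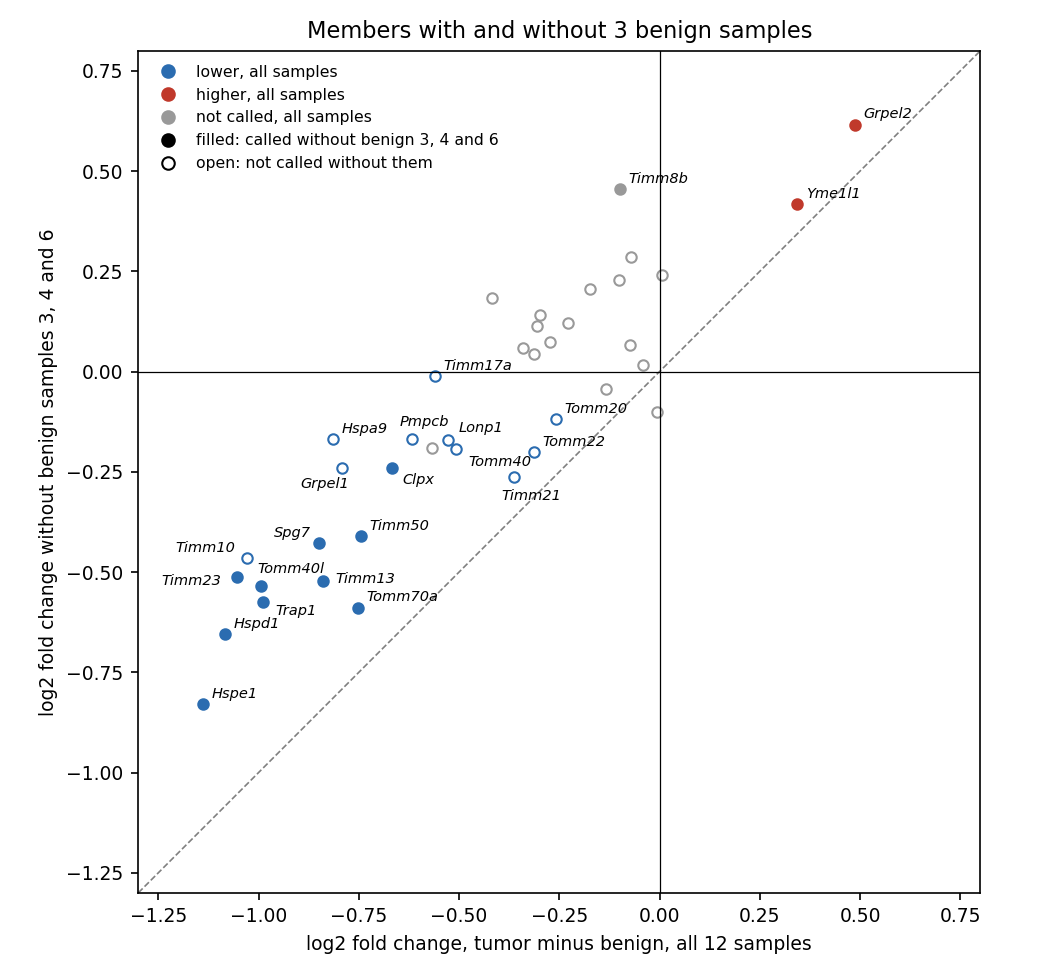
Log2 fold change of each of the 39 genes, tumor minus benign, with all 12 samples (x axis) and without benign samples 3, 4 and 6 (y axis). Colors give the call with all samples, filled points were called without the 3 samples, open points were not, and the dashed line marks equal values. Most points lie above the line, Hspe1 and Hspd1 remain furthest below 0, and Grpel2, Yme1l1 and Timm8b are the filled points above 0.

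In benign tissue the highest median levels scaled by transcript length were those of Hspd1 (179 CPM per kilobase of the median annotated transcript), Timm23 (168), Hspa9 (164), Hspe1 (133) and Tomm6 (129), and the ranges of these 5 over benign samples overlapped. In tumors they were those of Tomm6 (124), Hspa9 (99.7), Timm23 (86.8) and Hspd1 (83.9). The range over tumors of Tomm6 (107 to 137) overlapped those of Hspa9 (89.0 to 136) and Timm23 (68.5 to 110.2) but not that of Hspd1 (74.1 to 99.7), and the ranges of the last 3 overlapped each other. Grpel2 was the lowest in benign tissue (6.83) and Timm17a in tumors (8.24).

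Of 29 other genes of protein import and mitochondrial quality control 22 fell (34.8% of all genes tested did), 1 rose (28.2% of all did) and 6 were not called by edgeR, and the median log2 fold change was -0.54. The number called lower was 6 of 29 without benign samples 3, 4 and 6, where 28.7% of all genes were called lower. Immp2l, an inner membrane peptidase, fell by 2.60 on the log2 scale, from 12.2 ± 8.08 to 2.002 ± 0.49 CPM (means ± SD, n = 6 per group, adjusted p = 0.00011 by edgeR). Dnajc15, a relative of the motor subunit Dnajc19, fell by 1.67 (adjusted p = 0.00030 by edgeR), with 47.7 to 142 CPM in benign tissue and 17.3 to 28.1 CPM in tumors. Gfer, the sulfhydryl oxidase of the import relay in the intermembrane space, fell by 1.14 (adjusted p = 0.00014 by edgeR) and its partner Chchd4 by 0.58 (adjusted p = 0.039 by edgeR). The gene that rose was Mtx3, a metaxin of the outer membrane, with 21.9 to 33.8 CPM in benign tissue and 39.2 to 81.6 CPM in tumors, and its log2 fold change was 0.94 ± 0.19 (SE, adjusted p = 0.0010 by edgeR). The outer membrane assembly genes Samm50 (-0.55) and Mtx1 (-0.06) were not called. Of the transcription factors linked to mitochondrial stress, Atf5 fell by 0.69 (adjusted p = 0.038 by edgeR), and Atf4 (-0.31) and Ddit3 (-0.29) were not called. Without tumor 2, 3 or 4 the number of the 29 genes called lower was 14, 13 or 14.

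For scale, with all 12 samples 61 of 78 mitochondrial ribosomal protein genes fell and 1 rose, with a median log2 fold change of -0.55. Of 39 Complex I subunit genes 37 fell and none rose, with a median of -1.16. Over all genes tested 34.8% fell, 28.2% rose and the median was -0.06. The import and folding genes lay nearer to 0 than the ribosomal and Complex I genes by their median of -0.36, and no test of the difference between the groups of genes was made. Ribosomal and Complex I values without benign samples 3, 4 and 6 were not summarised, and the median of the 39 genes was -0.12 there.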

How the data were processed

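RNA of 6 mammary tumors and 6 benign mammary samples was analysed, grouped by label. The authors extracted RNA from frozen tissue with TRIzol and RNeasy, enriched poly A RNA and prepared stranded libraries. The submitters' processing notes name Trim Galore, Salmon, DESeq2 and the build mm10, without versions. The deposited values are counts per gene, whole numbers not scaled for library size, for 16411 genes with a sum of at least 5. Total counts were 5240853 to 8588567, and precision is limited by the spread between mice (common biological coefficient of variation 0.351). No 2 samples of a group agreed within sampling noise.

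From these counts, filterByExpr (minimum count 10, minimum total 15) kept 13191 genes, which edgeR 4.0.16 in R 4.3.3 compared after TMM scaling by its quasi-likelihood test (two-sided), called at an adjusted p of 0.1 (Benjamini-Hochberg, over all genes tested). The standard error is the absolute log2 fold change divided by the square root of F. Pairs of genes were compared by exact permutation of log2 ratios of counts, with 2 added to each count, adjusted over the 12 pairs. No gene set was tested.

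The 39 genes, the other lists and the pairs were chosen with earlier results of these data known. Every gene of the rule was named. Values per sample went to the called genes with the largest rises and falls (at most 8 each), members of pairs and the most abundant gene of each role, and a few further genes. Neighbours were taken as genes on the opposite strand whose starts lay within 1000 bases, from GENCODE M21 (GRCm38), and some were named after their values were seen. Promoter sequences came from RefSeq GRCm38.p6, matched by symbol for 33 of the 39 genes, and show the reference strain and not FVB. The tests were tried on simulated counts. Alternatives were DESeq2 1.42.0, other scaling, filters and thresholds, a replicate block, leaving out each sample, leaving out benign samples 3, 4 and 6, and covariates.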

Additional observations from a re-analysis of the deposited data

Results flagged for a closer look

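Within each group of 6, samples that stood apart from the others were sought by Dixon's test for the 39 genes and 12 ratios, and 9 of 102 sets held such a sample. Chance gives about 1 in 20.

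Benign sample 4, which had the highest brown fat transcripts, stood above the other benign samples for Timm10 (33.8 CPM, the others 10.03 to 18.3), Timm13 (107 CPM, the others 52.1 to 69.8) and Clpp (79.8 CPM, the others 37.1 to 51.8). Tumor 5 stood above the other tumors for Lonp1 (153 CPM, the others 103 to 112) and Timm10b (51.0 CPM, the others 30.2 to 37.3), and in the log2 ratio of Afg3l2 to Spg7 (1.18, the others 0.41 to 0.69). Tumor 1 stood above the other tumors for Grpel1 (74.9 CPM, the others 47.0 to 52.8). In log2 ratios, tumor 3 was low for Tomm40 to Tomm40l (0.89, the others 1.19 to 1.29) and tumor 2 for Clpp to Clpx (-1.07, the others -0.48 to -0.13). The cause of these values was not tested.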

How the results depend on the processing

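The number of the 39 genes called lower was 18 to 20 with DESeq2, with other scaling, with a filter of at least 1 count, with the replicate block and at a threshold of 0.05 (19), and 15 to 21 when a sample was left out. The number called higher was 2 in all of these. Without benign samples 3, 4 and 6 it was 10 lower, and with muscle score and Ucp1 as covariates 7 lower and 4 higher. The median log2 fold change was -0.12 and -0.015 in these fits, and -0.41 to -0.26 when a sample was left out. Of the 29 other genes, 6 were lower without the 3 samples, 5 lower and 2 higher with covariates, and 13 to 23 lower when a sample was left out. Log2 fold changes went from below to above 0 for 13 genes without the 3 samples (0.02 to 0.45) and for 16 with covariates (0.0072 to 0.56). Of these changes, those of genes called in either fit were Timm17a (0.13), Timm44 (0.33), Hspa9 (0.0072) and Timm8b (0.56) with covariates and Timm8b (0.45) without the 3 samples. The cause was not tested. Of the 22 called genes, 17 kept the call in all 12 fits that left out a sample. Pairs that passed numbered 3 without the 3 samples and 2 to 7 when a sample was left out. Samples with the same number were no more alike than others (correlations of deviations -0.12 to 0.10), so the numbers give no pairing. In the replicate block fit 20 genes were lower, 2 higher, and 0 pairs passed, where the smallest p for a pair over 64 sign flips is 0.0312.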
